A study of Mus musculus with 8 samples.

Results

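The set described here holds 39 mouse genes of the cell cycle and of DNA replication. They were chosen by symbol, with earlier results of these data known, and all 39 are among the 23156 genes of the deposited footprint table. They were followed by ribosome profiling of naive CD4+ T cells (helper cells that antigen has not yet activated), a method that sequences stretches of mRNA shielded by ribosomes from nuclease. Mettl3 knockout (KO) mice gave 2 footprint libraries and wildtype (WT) mice gave 2. All mice were of the C57BL/6 background, and every sample was held for 1 min in 0.1 mg/ml cycloheximide, which arrests ribosomes on mRNA. Mettl3 is the catalytic subunit of the enzyme that writes the m6A mark on mRNA. The allele, any Cre driver, the age of the mice and whether animals were pooled are not stated in the labels. Nor do the labels tie the duplicates to separate animals, so p-values reflect only library-to-library spread, possibly technical. The matched input RNA libraries were not analysed here, and a difference in footprints is therefore not divided into mRNA level and ribosome density. In a bulk sample, more dividing cells and more RNA per cell cannot be told apart either.

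Naive T cells rest outside the cell cycle, in the state called G0. On stimulation, D-type cyclins with CDK4 and CDK6 phosphorylate the retinoblastoma protein, E2F factors are released, and genes for DNA replication are transcribed. The MCM helicase is loaded on DNA before S phase, and a later wave of genes, controlled through the DREAM complex, the cell cycle homology element and CCAAT boxes, builds the mitotic machinery. Mki67, Top2a and the mitotic genes therefore mark cells that are cycling, whereas resting lymphocytes already hold D-type cyclins, CDK4 and part of the replication machinery.

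Mki67, Top2a, Aurkb, Ccna2, Tk1 and Rrm2, genes of S phase and mitosis, were low in all 4 libraries and stood higher in both KO libraries than in either WT library, at 1.99 to 5.50 times the WT mean. Of these, Mki67, Aurkb, Ccna2 and Tk1 had a WT mean under 1 FPKM and passed the filter on low genes through their KO values. Other genes of the same phases, Ccnb1, Ccnb2, Cdc20, Aurka, Stmn1 and Tyms, overlapped between genotypes. Ccnd3 and Ccnd2, D-type cyclin genes at higher levels, also stood higher in both KO libraries, at 1.44 and 1.15 times the WT mean. The MCM helicase genes, Cdk4, E2f4 and Myc, most of them at higher levels, had mean ratios of KO to WT between 0.815 and 1.20. Pcna, Cdt1, Rb1 and, by a small margin, Cdk4 stood lower in both KO libraries. No member passed the threshold of an adjusted p of 0.05 (limma, Benjamini-Hochberg over 9271 genes), where 2.22% of all tested genes did (1.56% higher and 0.658% lower in KO). At an unadjusted p under 0.05 there were 9 members of 30 tested, 7 higher and 2 lower in KO, against 18.4% of all tested genes (6.23% higher and 12.2% lower). Mki67, Aurkb, Ccna2 and Tk1, which entered through their KO values, are 4 of the 7, so this count leans towards KO.

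Levels are given as FPKM, fragments per kilobase of gene and per read total of the library. The gene length used is not stated. If it includes untranslated ends, where few footprints fall, levels of different genes compare only roughly. The depth, estimated from the FPKM that 1 read is worth in genes with 1 transcript, was about 5820000 and 2920000 reads in KO libraries 1 and 2 and about 5820000 and 3510000 reads in WT libraries 1 and 2. Mettl3 itself had 2.44 and 3.32 FPKM in KO libraries against 24.5 and 21.1 FPKM in WT libraries (log2 fold change -2.62, SE 0.18, limma adjusted p = 0.00208), though its exons overlap those of Tox4 on the other strand. Small RNA genes held 49.4% to 55.7% of the summed FPKM in KO libraries and 37.0% to 43.7% in WT libraries. They were left out of the tests, and across the genes tested the log2 fold change had a median of -0.10.

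Promoters were searched because E2F sites are known from genes of S phase entry, and the cell cycle homology element with CCAAT boxes from genes of mitosis. Those of 4 members are shown. RefSeq promoter windows (GRCm38.p6, from 250 bases before to 50 after a start) were found for 29 of the 39 members, in 33 windows, of which 28 matched the start of an annotated transcript on the gene's strand. Both strands were searched for the E2F site (TTTCCCGC, TTTGGCGC, TTTCGCGC or TTTGCCGC), the cell cycle homology element (TTTGAA or TTCGAA) and the CCAAT box (CCAAT), none of which contains another. The lines below give the 250 bases before the start, 5′ to 3′ on the gene's strand, with matches in capitals. Mki67 (chr7:135716380-135716629 (minus strand)), Top2a (chr11:99024190-99024439 (minus strand)) and Rrm2 (chr12:24708004-24708253 (plus strand)) stood higher in KO, and Mcm3 (chr1:20820313-20820562 (minus strand)) overlapped between genotypes.
Mki67: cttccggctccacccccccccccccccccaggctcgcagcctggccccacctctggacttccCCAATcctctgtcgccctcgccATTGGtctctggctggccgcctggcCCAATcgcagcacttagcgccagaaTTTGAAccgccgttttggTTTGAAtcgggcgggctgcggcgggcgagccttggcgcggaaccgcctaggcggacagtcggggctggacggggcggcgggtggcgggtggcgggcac
Top2a: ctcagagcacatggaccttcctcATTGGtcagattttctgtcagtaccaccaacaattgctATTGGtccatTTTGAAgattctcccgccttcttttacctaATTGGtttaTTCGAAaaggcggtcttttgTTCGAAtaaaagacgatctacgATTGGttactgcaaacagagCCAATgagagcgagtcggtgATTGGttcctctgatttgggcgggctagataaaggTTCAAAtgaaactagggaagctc
Rrm2: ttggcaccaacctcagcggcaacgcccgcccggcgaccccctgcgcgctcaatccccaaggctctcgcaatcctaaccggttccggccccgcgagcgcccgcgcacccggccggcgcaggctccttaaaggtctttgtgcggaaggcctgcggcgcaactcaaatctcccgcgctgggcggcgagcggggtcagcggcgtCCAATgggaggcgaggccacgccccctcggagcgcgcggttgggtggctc
Mcm3: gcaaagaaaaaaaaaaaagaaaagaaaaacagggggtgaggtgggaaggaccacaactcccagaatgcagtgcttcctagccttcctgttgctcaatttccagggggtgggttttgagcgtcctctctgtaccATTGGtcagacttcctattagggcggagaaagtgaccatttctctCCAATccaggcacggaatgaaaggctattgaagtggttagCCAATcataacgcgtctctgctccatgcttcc

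The Top2a stretch held 4 matches to the cell cycle homology element and 6 to the CCAAT box, and that of Mki67 held 2 and 3. Rrm2 had 1 CCAAT match and Mcm3 had 3. The E2F matches of Mcm3 began 20 and 39 bases after its start, outside the printed stretch. No E2F match lies in any of the printed stretches. Over the module, E2F letters were found for 10 of 29 members (34.5%), against 2.61% of the 27025 genes with a window. The cell cycle homology element was found for 11 of 29 (37.9%), against 21.7% of all genes, and CCAAT for 20 of 29 (69.0%), against 41.1%. Among the 11 members with a window that stood higher in both KO libraries, 3 held E2F letters, 5 the homology element and 8 CCAAT; among the 18 others these were 7, 6 and 12. A match is a string of letters and not a measured binding site.

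**Figure D1:**
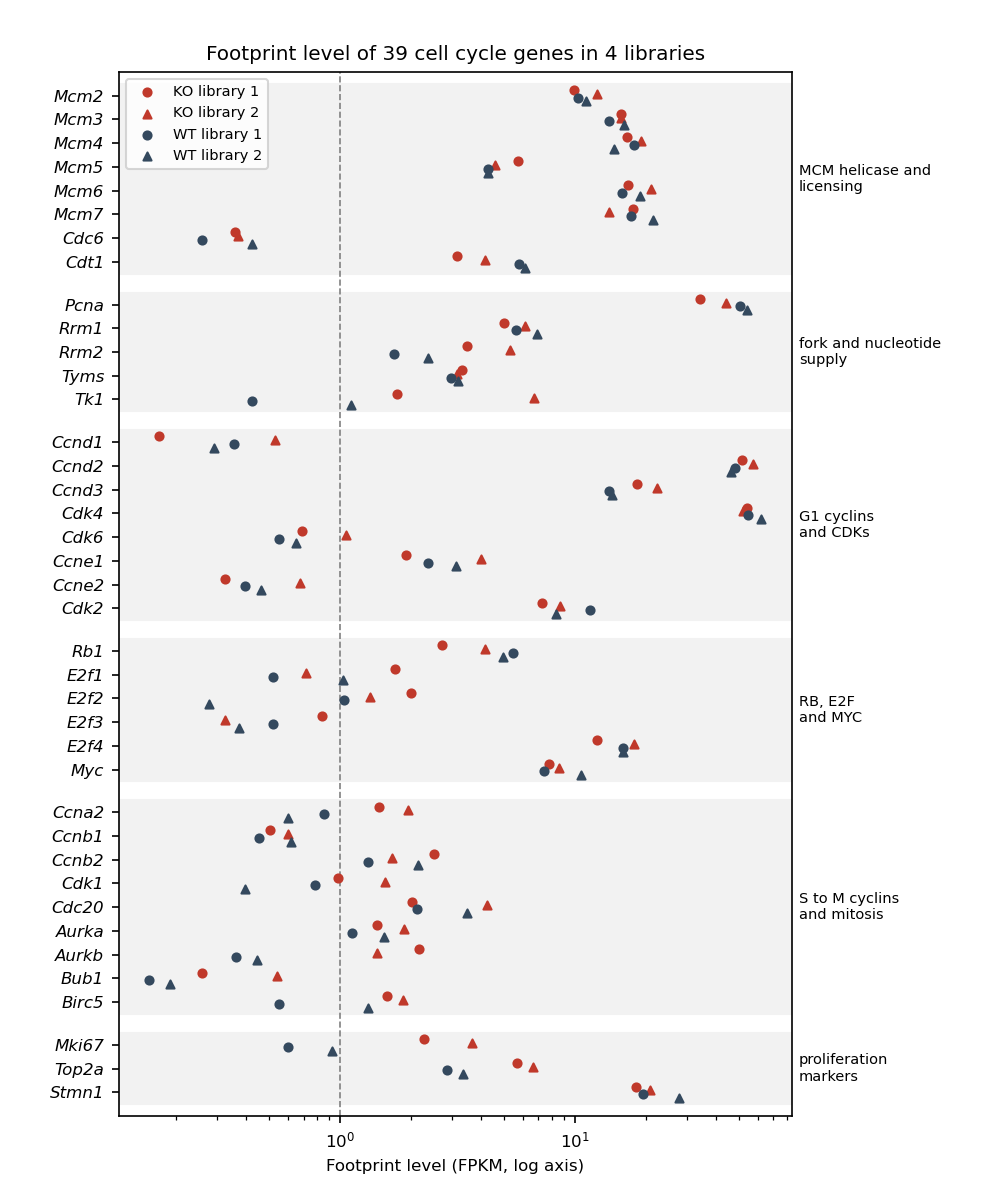
Footprint level in FPKM (log axis) of each of the 39 members in the 2 KO libraries (red) and the 2 WT libraries (dark), grouped by role; the dashed line marks 1 FPKM. Circles are library 1 and triangles library 2. The KO points lie to the right of both WT points for 14 members, among them Mki67, Top2a, Aurkb, Tk1 and Rrm2, and to the left for 4.

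The plot of levels by library shows the whole set. Both KO libraries lay above both WT libraries at 14 of the 39 members and below them at 4, and the genotypes overlapped at 21. Over all 15456 genes other than small RNAs with a value above 0, KO lay above at 14.8% and below at 28%. Among the tested genes alone these shares were 16.3% and 34.6%. Of the 39 members, 30 had a mean of at least 1 FPKM over the 4 libraries and were tested. In 6 of these 30 (Mki67, Ccna2, Aurkb, Birc5, Tk1 and E2f2) the WT mean was under 1 FPKM, so that they entered through their KO values, and no tested member had a KO mean under 1 FPKM. Counts over the tested members therefore lean towards KO and carry no weight of their own.

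Of the 3 proliferation markers, Mki67 and Top2a had the smallest p-values of the module, and Stmn1 overlapped between genotypes. Mki67 (chromosome 7, 135689784 to 135716361, GENCODE M21, GRCm38) encodes Ki-67, a coat protein of mitotic chromosomes that is absent from resting cells. It had 2.27 and 3.64 FPKM in KO libraries, against 0.599 and 0.925 FPKM in WT libraries. Both KO libraries were higher than both WT libraries, and the means were 2.96 ± 0.962 FPKM in KO and 0.762 ± 0.231 FPKM in WT (SD, n = 2 each), a ratio of 3.88. With a transcript length of 10061 bases these levels correspond to about 133 and 107 reads in KO and 35.1 and 32.6 reads in WT. The log2 fold change was 1.15 (SE 0.27, 95% interval 0.52 to 1.79), with a limma adjusted p of 0.0895, and over the alternatives the p lay between 0.0533 and 0.369. The size of a low gene's fold change depends on the pseudocount: that of Mki67 was 1.82 with a pseudocount of 0.1 and 0.46 with one of 5, and that of Top2a was 0.97 and 0.46.

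Top2a (chromosome 11, 98992943 to 99024189) encodes topoisomerase II alpha, which untangles replicated DNA. Its level was 5.67 and 6.65 FPKM in KO libraries, against 2.87 and 3.33 FPKM in WT libraries. The genotypes did not overlap, and the ratio of means was 1.99, on about 172 and 101 reads in KO and 87.1 and 61.0 reads in WT. The log2 fold change was 0.80 (SE 0.19, limma adjusted p = 0.087, 95% interval 0.37 to 1.24). Exons of Top2a overlap those of Gm23451 on the same strand, and how reads shared by the pair were assigned is not given. When each library was centred on its median, Top2a passed the threshold (limma adjusted p = 0.0434), and it was the 1 member to do so under any alternative. Stmn1, the third of these markers, encodes stathmin, a protein that destabilises microtubules. It had 18.2 and 20.9 FPKM in KO libraries, against 19.5 and 27.8 FPKM in WT libraries, and the genotypes overlapped. Exons of Stmn1 overlap those of Gm23634 on the same strand.

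Among genes acting from S phase to mitosis, 5 of 9 stood higher in both KO libraries and 0 stood lower in both, against 14.8% and 28% of all genes with a value. Of the 5, Ccna2, Aurkb and Birc5 passed the filter through their KO values, and Cdk1 and Bub1 were below it. The count takes in all 9 genes without the filter, but they were chosen with earlier results of these data known. It therefore carries no weight of its own. Aurkb encodes Aurora kinase B, the enzyme of the chromosomal passenger complex. It had 2.17 and 1.44 FPKM in KO libraries, against 0.362 and 0.444 FPKM in WT libraries, which is about 24.6 and 8.20 reads in KO and 4.11 and 3.04 reads in WT. The genotypes were separate, with a ratio of means of 4.47 (log2 fold change 0.99, SE 0.27, limma adjusted p = 0.124), but the counts behind it are small, and the fold change was 1.90 with a pseudocount of 0.1 and 0.33 with one of 5. Birc5 encodes survivin, a partner of Aurora kinase B in that complex, and had 1.59 and 1.86 FPKM in KO libraries, against 0.551 and 1.32 FPKM in WT libraries. That is about 8.74 and 5.14 reads in KO and 3.04 and 4.37 reads in WT, too few to show a difference at this depth. Ccna2, which encodes the cyclin A of S and G2 phase, had 1.46 and 1.95 FPKM in KO libraries, against 0.857 and 0.600 FPKM in WT libraries (limma adjusted p = 0.247). Exons of Ccna2 overlap those of Exosc9 on the opposite strand, and since the use of strand is not given, reads of the pair cannot be told apart.

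Cdk1, the kinase that drives entry into mitosis, was below the filter and was not tested. It had 0.977 and 1.55 FPKM in KO libraries, against 0.781 and 0.393 FPKM in WT libraries, so KO was higher with a ratio of means of 2.16. Bub1, a kinase of the spindle checkpoint, had 0.259 and 0.538 FPKM in KO libraries, against 0.155 and 0.189 FPKM in WT libraries. These Bub1 levels amount to about 5.15 and 5.37 reads in KO and 3.08 and 2.27 reads in WT, too few to show a difference at this depth.

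The B-type cyclins are partners of Cdk1 in mitosis, as cyclin A is before it. Ccnb1 had 0.506 and 0.601 FPKM in KO libraries, against 0.453 and 0.617 FPKM in WT libraries, and Ccnb2 had 2.51 and 1.66 FPKM in KO libraries, against 1.31 and 2.14 FPKM in WT libraries. Both overlapped between genotypes. Cdc20, an activator of the anaphase-promoting complex, differed more within a genotype than between genotypes, with 2.03 and 4.22 FPKM in KO libraries and 2.12 and 3.46 FPKM in WT libraries. Its exons overlap those of Elovl1 on the opposite strand. Aurka, the Aurora kinase of spindle poles, had 1.44 and 1.87 FPKM in KO libraries, against 1.13 and 1.54 FPKM in WT libraries, and the genotypes overlapped here too.

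**Figure D2:**
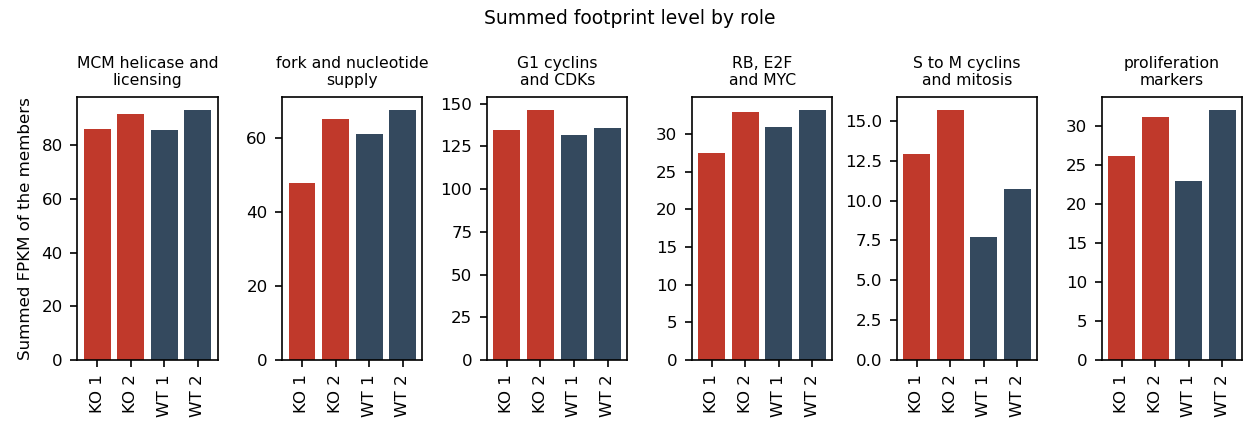
Summed FPKM of the members of each role in each library, KO libraries 1 and 2 in red and WT libraries 1 and 2 in dark; each bar is 1 library and starts at 0. The genes from S phase to mitosis summed to 12.9 and 15.7 FPKM in KO against 7.72 and 10.7 FPKM in WT, whereas the MCM and licensing genes summed to 86.0 and 91.6 FPKM in KO against 85.6 and 93.2 FPKM in WT.

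The plot of summed levels sets the roles side by side. Genes of S phase to mitosis were the role with the least footprint signal, and in it both KO libraries stood above both WT libraries. In the roles of the helicase, of the replication fork, of RB, E2F and MYC, and of the proliferation markers (whose sum Stmn1 dominates) the summed levels of the genotypes overlapped. The summed level of G1 cyclins and CDKs was 134 and 146 FPKM in KO libraries, against 132 and 136 FPKM in WT libraries, which also overlapped.

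The helicase genes were nearly level between genotypes. The MCM2 to MCM7 proteins form the ring that unwinds DNA at replication forks and is loaded in G1. Mcm3 had 15.8 and 15.7 FPKM in KO libraries, against 14.04 and 16.1 FPKM in WT libraries. Mcm6 had 16.8 and 21.1 FPKM in KO libraries, against 15.8 and 18.9 FPKM in WT libraries. Across the 6 subunit genes, log2 fold changes ran from -0.28 (Mcm7, 95% interval -0.69 to 0.13) to 0.21 (Mcm5, -0.22 to 0.64), each interval including 0, and 1 of the 6, Mcm5, did not overlap, with 5.71 and 4.58 FPKM in KO libraries against 4.28 and 4.29 FPKM in WT libraries. Within KO, Mcm5 was the lowest of the 6 subunit genes, and the same was true within WT. Exons of Mcm7 overlap those of Ap4m1 and Cops6, and the gene also hosts Mir25 and Mir93.

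Cdt1 and Cdc6 are licensing factors that load this ring. Cdt1 (chromosome 8, 122568015 to 122573554), which brings the helicase to origins and is restrained by geminin, had 3.15 and 4.15 FPKM in KO libraries, against 5.78 and 6.16 FPKM in WT libraries. KO was lower in both libraries, at 0.611 of the WT mean, with a limma adjusted p of 0.171 (log2 fold change -0.59, SE 0.19, 95% interval -1.04 to -0.14). Cdc6, its partner in loading, was listed at 0.359 and 0.367 FPKM in KO libraries and 0.258 and 0.422 FPKM in WT libraries, about 2.74 to 5.34 reads in any library. Its values overlapped between genotypes and were not tested.

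Of the 5 genes of the replication fork and of nucleotide supply, Rrm2 and Tk1 stood higher in both KO libraries, Pcna stood lower, and Rrm1 and Tyms overlapped. Pcna (chromosome 2, 132249162 to 132253314), which encodes the sliding clamp of DNA polymerases, had 34.2 and 43.8 FPKM in KO libraries, against 50.4 and 54.0 FPKM in WT libraries. Both KO values were lower than both WT values (ratio of means 0.747, limma adjusted p = 0.207). The log2 fold change was -0.42 (SE 0.15), or -0.25 without KO library 1. The annotation lists the pseudogenes Pcna-ps1 and Pcna-ps2, and how reads shared with them were assigned is not given.

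Rrm2 (chromosome 12, 24708241 to 24714146), the subunit of ribonucleotide reductase whose level follows S phase, had 3.47 and 5.30 FPKM in KO libraries, against 1.70 and 2.37 FPKM in WT libraries. The genotypes were separate, with a ratio of means of 2.16 (log2 fold change 0.82, SE 0.25, limma adjusted p = 0.15). Its partner Rrm1, the large subunit, which is long-lived as a protein, had 4.99 and 6.11 FPKM in KO libraries, against 5.64 and 6.88 FPKM in WT libraries, and the genotypes overlapped. Within the enzyme, then, the ratio of KO to WT means was 2.16 for the small subunit and 0.887 for the large one; the difference between the 2 was not tested.

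Tk1 (chromosome 11, 117815526 to 117826092), the cytosolic thymidine kinase made in S phase, had the highest ratio of the module. It had 1.75 and 6.71 FPKM in KO libraries, against 0.422 and 1.12 FPKM in WT libraries, on about 14.7 and 28.2 reads in KO and 3.54 and 5.64 reads in WT. The ratio of means was 5.50, yet the KO libraries differed from each other by more than KO library 1 differed from either WT library, and the log2 fold change of 1.41 had an SE of 0.47 (limma adjusted p = 0.186). It was 0.66 without KO library 2 and 2.15 without KO library 1, and 0.63 with a pseudocount of 5. Exons of Tk1 overlap those of Afmid on the opposite strand. Tyms, thymidylate synthase, was level, with 3.30 and 3.15 FPKM in KO libraries and 2.97 and 3.18 FPKM in WT libraries.

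The G1 machinery was abundant. In FPKM, Cdk4 had the highest WT level of the module, with 54.1 and 51.9 FPKM in KO libraries, against 54.6 and 62.2 FPKM in WT libraries. Both KO values were below both WT values, by little, and its log2 fold change was -0.14 (95% interval -0.43 to 0.16). In WT it averaged 58.4 ± 5.43 FPKM, followed by Pcna at 52.2 ± 2.54 and Ccnd2 at 47.2 ± 1.29 FPKM (SD, n = 2 each); the lower WT value of Cdk4, 54.6 FPKM, and the higher one of Pcna, 54.0 FPKM, were close. In KO the order changed, with Ccnd2 at 54.4 ± 3.97, Cdk4 at 53.0 ± 1.53 and Pcna at 39.01 ± 6.80 FPKM (SD, n = 2 each), and the KO values of Ccnd2 and Cdk4 overlapped. Exons of Cdk4 overlap those of Tspan31 on the opposite strand. The order of these genes depends on the length that FPKM divides by, 6330 bases for the Ccnd2 transcript and 2053 for that of Cdk4. In estimated reads Ccnd2 stood above Cdk4 in every library. It had about 1901 and 1056 reads in KO libraries and 1775 and 1029 in WT libraries. Cdk4 had about 646 and 311 reads in KO libraries and 652 and 448 in WT libraries.

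The 3 D-type cyclins, which activate CDK4 and CDK6, were made at very different levels. Ccnd2 had 51.6 and 57.2 FPKM in KO libraries, against 48.2 and 46.3 FPKM in WT libraries. Ccnd3 had 18.4 and 22.4 FPKM in KO libraries, against 14.01 and 14.4 FPKM in WT libraries. Both genes stood higher in both KO libraries, with log2 fold changes of 0.20 for Ccnd2 (limma adjusted p = 0.436, 95% interval -0.09 to 0.49) and 0.49 for Ccnd3 (limma adjusted p = 0.161, 95% interval 0.13 to 0.85). Ccnd1 was under 1 FPKM everywhere, with 0.170 and 0.530 FPKM in KO libraries and 0.356 and 0.290 FPKM in WT libraries. Exons of all 3 overlap genes on the opposite strand, which for Ccnd3 is Bysl.

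Cdk6 had 0.688 and 1.07 FPKM in KO libraries, against 0.550 and 0.653 FPKM in WT libraries, so both KO values were higher, but the mean was below the filter. Of the kinases for D-type cyclins, CDK4 was thus read far more than CDK6 in both genotypes. The gap was smaller in estimated reads, as the Cdk6 transcript has 11525 bases and that of Cdk4 2053. Cdk6 had about 46.1 and 35.8 reads in KO libraries and 36.9 and 26.4 in WT libraries. Cdk4 had about 646 and 311 in KO libraries and 652 and 448 in WT libraries. Cdk2, the partner of cyclins E and A, had 7.26 and 8.68 FPKM in KO libraries, against 11.6 and 8.31 FPKM in WT libraries, and the genotypes overlapped. Ccne1 and Ccne2, the E-type cyclins of S phase entry, overlapped between genotypes, Ccne1 at 1.92 and 3.98 FPKM in KO libraries and 2.37 and 3.12 FPKM in WT libraries, and Ccne2 at 0.325 to 0.675 FPKM over the 4 libraries.

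Of the RB and E2F genes, the pocket protein gene was lower. Rb1 (chromosome 14, 73183673 to 73325822), whose product holds E2F factors in check, had 2.73 and 4.17 FPKM in KO libraries, against 5.45 and 4.96 FPKM in WT libraries. Both KO values were below both WT values (ratio of means 0.662, limma adjusted p = 0.277). The log2 fold change was -0.50 (95% interval -1.01 to 0.01), or -0.26 without KO library 1. Exons of Lpar6 and Rcbtb2 overlap those of Rb1 on the opposite strand.

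E2f4, the E2F of repressive complexes in resting cells, led its family, with 12.4 and 17.9 FPKM in KO libraries and 16.0 and 16.0 FPKM in WT libraries. The activating E2F genes were low. E2f2 had 2.01 and 1.35 FPKM in KO libraries, against 1.04 and 0.277 FPKM in WT libraries, with KO higher in both libraries (limma adjusted p = 0.285). E2f1 had 1.72 and 0.719 FPKM in KO libraries, against 0.520 and 1.03 FPKM in WT libraries, and E2f3 stayed between 0.324 and 0.838 FPKM in all libraries; both overlapped. Myc, the transcription factor of growth, had 7.79 and 8.53 FPKM in KO libraries, against 7.42 and 10.6 FPKM in WT libraries (log2 fold change -0.11, 95% interval -0.57 to 0.35).

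**Figure D3:**
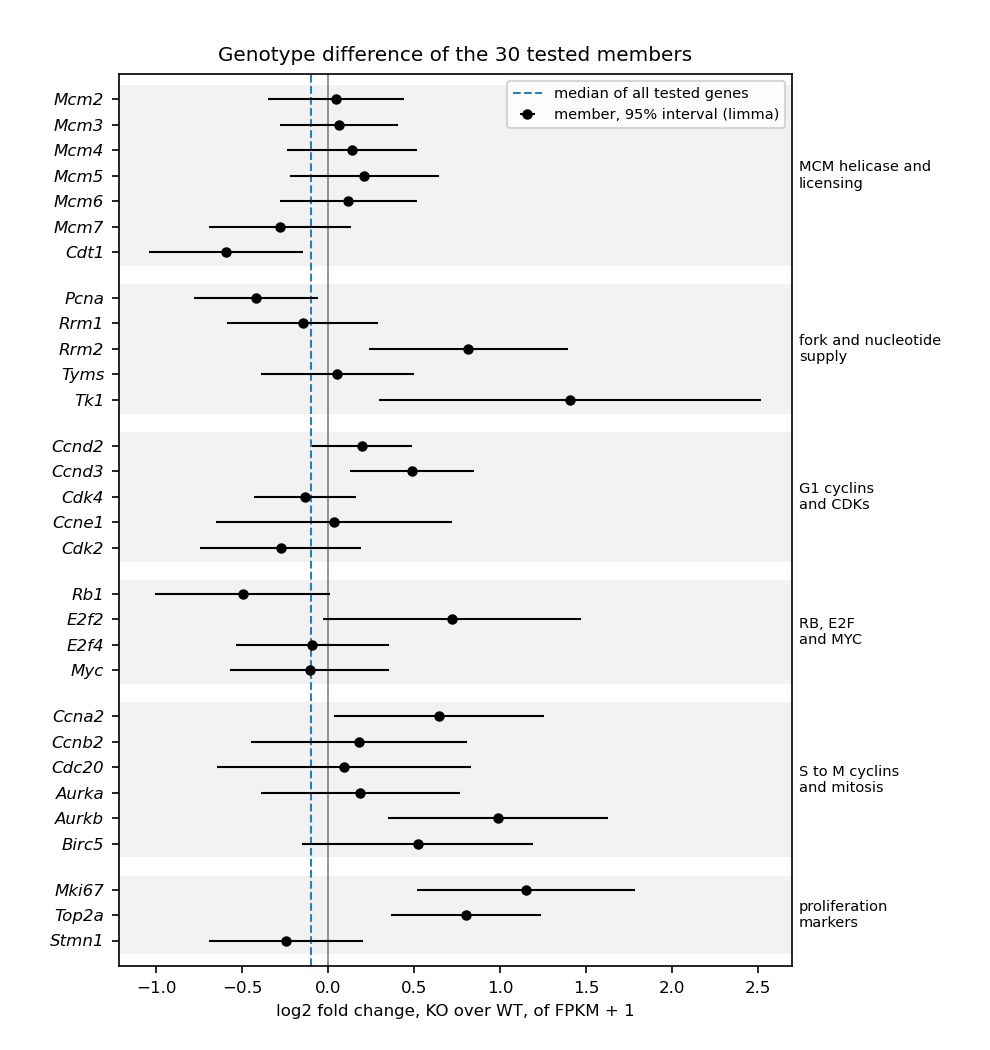
log2 fold change (KO over WT, of FPKM + 1) of the 30 tested members by role; points are limma estimates and bars are 95% intervals, unadjusted for the number of genes. The dashed line is the median of all tested genes at -0.10. Mki67, Top2a, Aurkb, Tk1, Rrm2, Ccna2 and Ccnd3 have intervals above 0, Pcna and Cdt1 below it.

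The plot of fold changes by role shows that intervals widened towards the low genes: the SE was 0.12 for Ccnd2 and 0.47 for Tk1. The median log2 fold change of the tested members was 0.10, against the -0.10 of the whole table. This median leans towards KO, since the 6 members that entered through their KO values all had positive fold changes (median 0.85). By role the median was 0.06 for the 7 tested MCM and licensing genes, 0.05 for the 5 genes of the fork and nucleotide supply, 0.03 for the 5 G1 cyclins and CDKs, -0.10 for the 4 genes of RB, E2F and MYC, 0.35 for the 6 genes of S phase to mitosis and 0.80 for the 3 proliferation markers. Roles that hold such members lean the same way: Ccna2, Aurkb and Birc5 in S phase to mitosis, Mki67 among the markers, Tk1 in nucleotide supply and E2f2 in its role.

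**Figure D4:**
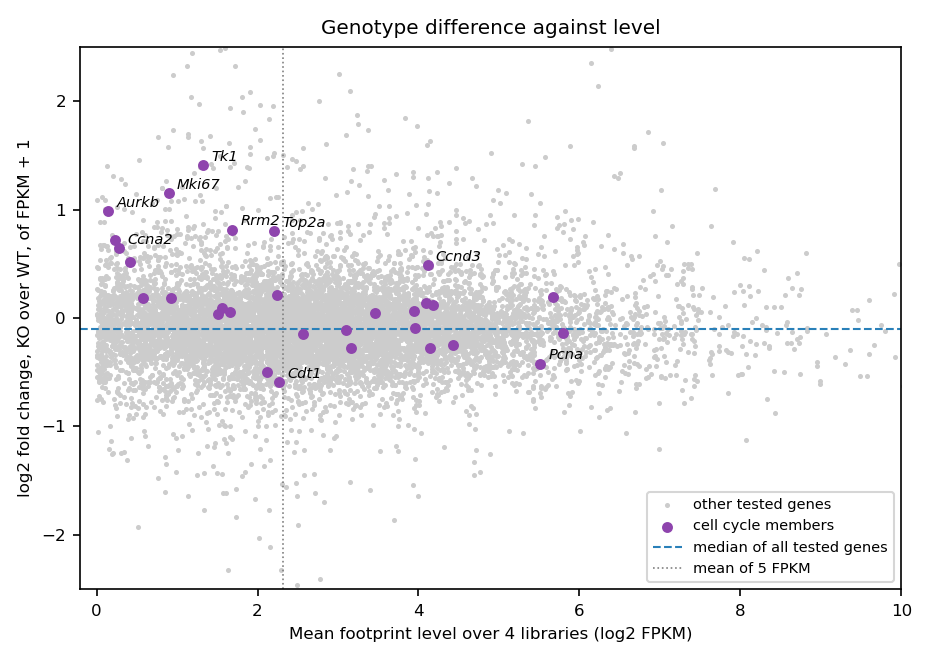
log2 fold change (KO over WT, of FPKM + 1) against mean level over the 4 libraries (log2 FPKM) for the tested members (purple) and the other tested genes (grey); 69 genes beyond the axes are not drawn. Named members have an unadjusted p under 0.05; the dotted line marks a mean of 5 FPKM, to the right of which the members lie around the median of all genes.

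The plot of difference against level sets the members beside genes of like abundance. The 14 members with a mean of at least 5 FPKM had a median log2 fold change of -0.10, and all 5550 tested genes of that level had -0.11. KO lay above WT at 2 of the 14 and below at 2, against 17.5% and 37.5% of all tested genes of that level. Of the 16 tested members below 5 FPKM, KO lay above WT at 9 and below at 2, against 14.6% and 30.3% of all 3721 tested genes of that level. The 6 members that entered through their KO values are among the 9. Without those 6, KO lay above WT at 3 of 10 and below at 2.

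The other genes of the cell cycle were read from 3 lists. Of 44 tested replication genes outside the module, 0 passed the threshold in either direction and 5 had an unadjusted p under 0.05, 1 higher and 4 lower in KO (median log2 fold change -0.04). The 5 are 11.4% of the list, under the 18.4% of all tested genes. KO lay above WT at 12 of the 50 listed and below at 16, against 14.8% and 28% of all genes with a value. The most abundant were Slbp, which binds histone mRNA (33.9 and 47.0 FPKM in KO libraries, against 43.7 and 34.5 FPKM in WT libraries), and Pole4, a subunit of DNA polymerase epsilon (34.7 and 32.4 FPKM in KO libraries, against 41.7 and 35.7 FPKM in WT libraries). Fen1, the flap endonuclease of Okazaki fragments, chosen after its values were seen, was the 1 gene on the higher side, with 13.5 and 14.3 FPKM in KO libraries, against 8.32 and 9.70 FPKM in WT libraries (limma adjusted p = 0.115). The 4 on the lower side, named for the same reason, were Pold2, Rpa1, Rpa3 and Timeless.

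Of 26 tested mitotic genes outside the module, 0 passed the threshold, and 3 were higher and 3 lower in KO at an unadjusted p under 0.05 (median log2 fold change 0.13), which is 23.1% of the list against 18.4% of all tested genes. Both KO libraries lay above both WT libraries at 21 of the 43 listed and below at 8, against 14.8% and 28% of all genes with a value, and 17 of the 43 were too low to be tested. Tacc3, a spindle protein, chosen after its values were seen, had 6.87 and 7.14 FPKM in KO libraries, against 4.05 and 3.62 FPKM in WT libraries (log2 fold change 0.73, limma adjusted p = 0.0892). Bub1b, a checkpoint kinase gene chosen the same way, had 3.26 and 4.76 FPKM in KO libraries, against 1.93 and 2.11 FPKM in WT libraries. The other higher one was Cdc25b, and the lower ones were Smc4, Pttg1 and Anapc5. The 2 most abundant of the list had lower values in KO: Smc4, a condensin subunit, had 62.8 and 66.9 FPKM in KO libraries, against 87.8 and 103 FPKM in WT libraries (limma adjusted p = 0.0907), and Pttg1, which encodes securin, had 31.2 and 33.6 FPKM in KO libraries, against 43.6 and 50.9 FPKM in WT libraries (limma adjusted p = 0.109).

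Of 34 tested regulators of G1 outside the module, 0 passed the threshold, with 1 higher and 4 lower at an unadjusted p under 0.05 (median log2 fold change -0.08). The 5 are 14.7% of the list, under the 18.4% of all tested genes. KO lay above WT at 9 of the 44 listed and below at 10, against 14.8% and 28% of all genes with a value. Cdkn1b, which encodes the CDK inhibitor p27 that holds T cells at rest, had 44.2 and 48.0 FPKM in KO libraries, against 49.7 and 56.8 FPKM in WT libraries (limma adjusted p = 0.455). Skp1a, a subunit of the SCF ubiquitin ligase that degrades p27, had 93.8 and 103 FPKM in KO libraries, against 131 and 137 FPKM in WT libraries (limma adjusted p = 0.105). Mxd1, an antagonist of MYC chosen after its values were seen, was the 1 gene on the higher side, with 3.39 and 5.20 FPKM in KO libraries, against 1.76 and 0.878 FPKM in WT libraries (limma adjusted p = 0.0895). The 4 on the lower side were Skp1a, Rbx1, Mnat1 and Mxd4.

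Markers of cells were summed beside these results. The 12 listed markers of CD4+ T cells in the table summed to 1081 and 1129 FPKM in KO libraries, against 1032 and 1160 FPKM in WT libraries, with Cd4 at 82.0 to 101 FPKM over the 4 libraries. Its members went both ways: at an unadjusted p under 0.05 Cd3d, Cd3g, Cd28, Cd5 and Lef1 were lower in KO and Il7r was higher (limma adjusted p = 0.075 for Il7r). These are 50% of the list, 5 lower and 1 higher, against 18.4% of all tested genes (12.2% lower and 6.23% higher). Of the 12, 0 passed the threshold. The 2 CD8 genes summed to 1.28 to 1.47 FPKM in KO and 1.13 to 2.41 FPKM in WT. B cell markers (6 genes, Pax5 at 0 in all libraries) summed to 7.84 and 19.0 FPKM in KO libraries, against 26.3 and 17.6 FPKM in WT libraries. NK markers (5 genes, Ncr1 at 0) summed to 12.7 and 18.3 FPKM in KO libraries, against 6.61 and 12.5 FPKM in WT libraries, and most of the sum was Nkg7, which effector T cells also express. Of the other NK markers, Klrb1c, Klrk1 and Klra8 were lower in both KO libraries than in either WT library. Myeloid markers (7 genes, S100a9 at 0) summed to 13.8 and 20.0 FPKM in KO libraries, against 24.1 and 17.6 FPKM in WT libraries, and thymocyte markers (5 genes, Rag1 at 0) to 17.2 and 15.2 FPKM in KO libraries, against 19.0 and 19.6 FPKM in WT libraries. Most of the thymocyte sum was Cd1d1, at 11.1 to 13.0 FPKM, which overlapped between genotypes. Dntt (1.64 and 1.87 FPKM in KO, 3.98 and 3.49 FPKM in WT) and Ptcra were lower in both KO libraries than in either WT library.

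Erythroid markers, whose precursors divide, summed over 6 genes to 10.3 and 45.3 FPKM in KO libraries, against 6.29 and 22.6 FPKM in WT libraries. KO library 2 was the highest in this sum and also in Tk1, Mki67 and Top2a, though it had less Aurkb than KO library 1. Within WT, library 2 had the higher erythroid sum and more Mki67, Top2a, Tk1 and Aurkb than library 1, but less Ccna2. Between genotypes, KO library 1, at a lower erythroid sum than WT library 2, had more Mki67, Top2a, Tk1 and Aurkb than that library. The erythroid sum was mostly globin (Hba-a1), and Klf1, a transcription factor of erythroid precursors, reached at most 0.587 FPKM in any library. The part of these markers in the differences of the late cycle genes was not tested.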

How the data were processed

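Per the file headers, the authors deposited FPKM, with 1 column for each footprint library. TopHat, Cuffdiff and the build mm10 (GRCm38) are named, per the submitters' processing notes, without versions. The annotation, the use of strand, the handling of multiply mapped reads and the scaling were not stated.

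The members and gene lists were chosen with earlier results of these data known. All 39 members are accounted for, and the rule also named Mettl3 and the 2 most abundant tested genes of each other cell cycle list. Small RNA genes, 1216 by symbol, stayed out. A mean of 1 FPKM or more over the 4 libraries was required, which kept 9271 genes. KO and WT were compared on log2(FPKM + 1), a scale that understates changes of low genes, by limma (version 3.58.1, R 4.3.3; trended empirical Bayes, two-sided, 2 residual and 5.2 prior degrees of freedom) with Benjamini-Hochberg adjustment over every tested gene and a threshold of 0.05. Read numbers are approximate: FPKM times estimated depth times a transcript length from GENCODE M21. Counts were not rebuilt for a test, since the lengths the authors used are unknown. The fit was tested on simulated data. Alternatives changed the pseudocount, filter, scaling, small RNA genes, trend, replicate block and each library.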

Additional observations from a re-analysis of the deposited data

How the results depend on the processing

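No member was called under the pseudocounts, filters, variance models, replicate block or left-out libraries tried; with libraries centred on their medians 1 was called, Top2a, whose adjusted p ranged from 0.0434 to 0.351 over its settings. Centring gave 204 higher and 50 lower genes over the whole table (80.3% higher) in place of 145 and 61 (70.4% higher). Of all tested genes, 206 were called in the comparison as reported, 83 with small RNA genes kept, 68 without the trend, 1 to 57 when a library was left out (57 without WT library 1, 43 without WT library 2, 34 without KO library 1 and 1 without KO library 2) and 0 with no filter, although 2061 of 15456 genes then had an unadjusted p under 0.05, 7 members of 39 among them. A fit without a library leaves 1 library in a genotype, assumed to vary like the other genotype. For the members and the other cell cycle lists, a count of 0 in these fits says little about stability. The median log2 fold change of the members was 0.10, fell to -0.10 among the 14 members of at least 5 FPKM, and ran from -0.01 (without WT library 1) to 0.21 without single libraries. Direction turned at 8 of 30 tested members, each with a log2 fold change of at most 0.18 in size: E2f4 with median centring (0.0031), and, over fits that left out single libraries, Mcm2 (-0.10 to 0.20), Mcm3 (-0.033 to 0.16), Mcm6 (-0.039 to 0.28), Ccnb2 (-0.041 to 0.40), Ccne1 (-0.35 to 0.42), Cdc20 (-0.30 to 0.48), Myc (-0.34 to 0.12) and E2f4 (-0.34 to 0.15). The cause was not tested. The labels give no sign that replicate numbers pair the libraries. The replicate block called 170 genes and no member, and deviations of same-numbered libraries had a correlation of -0.0927 over genes. Depth limits the 9 members under 1 FPKM, of which Bub1 and Cdc6 rest on about 2.27 to 5.37 reads a library. It also limits low tested members such as Birc5, at about 3.04 to 8.74 reads a library.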
